A study of Cavia porcellus with 10 samples.

Results

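Thrombospondins, tenascins, SPARC, periostin and osteopontin are matricellular proteins, secreted molecules that sit in the extracellular matrix and regulate its assembly and its signals to cells. The genes chosen for them were THBS1, THBS2, THBS3, THBS4, COMP, TNC, TNXB, SPARC, POSTN and SPP1, taken by symbol from a table of read counts of guinea pig (Cavia porcellus) sclera. Of the 10 symbols, 9 had a row among the 17642 rows that carry a symbol, and no row was labelled TNXB, so no value is given under that symbol. TNC stood on 2 rows. By the rule used for repeated symbols, the row with the higher mean count stands for TNC, and the row with fewer reads is given beside it. The row with more reads stood where the symbol TNXB would sort, and which of these genes it counts was not settled.

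The libraries were made from the sclera, the tough white collagen shell around the eye, of guinea pigs that were all male and 2 to 3 weeks old. In the myopia group (5 libraries) both eyes had undergone lens-induced myopization, in which a lens worn before the eye makes it nearsighted, and in the control group (5 libraries) the animals were left untreated. No genotype or other agent is named, and the sources used here give neither the power of the lens nor the time it was worn. Because both eyes of an animal were treated there was no untreated fellow eye. The labels do not tie eyes to animals, so the p-values reflect only the variation among these libraries, part of which may be technical.

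In the matrix these proteins have different partners. Thrombospondin-1 activates latent TGF-beta and restrains vessel growth through the receptors CD36 and CD47, COMP and SPARC bind collagen and take part in fibril assembly, tenascin-C loosens cell adhesion in remodelling tissue, and periostin and osteopontin bind integrins. The sclera depends on the amount and the order of its collagen fibrils to hold the shape of the eye, and the matrix is remodelled while a myopic eye lengthens.

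THBS1 was the one matricellular gene of the set that rose in the myopic sclera, about 2.56-fold. COMP, SPARC and the TNC row with more reads fell. SPP1 and THBS3 fell on the TMM scale of libraries but were not called by total count (log2 fold change -0.13 and 0.07). Whether the fall of that TNC row is one of TNC or of TNXB was not settled. THBS2, THBS4 and POSTN did not pass the test. Calls rest on edgeR's quasi-likelihood test with Benjamini-Hochberg adjustment over the 14683 genes tested, at an adjusted p of 0.05. Of the 9 genes, all of them tested, 1 was called higher and 5 lower, which is 66.7% called, while 71.9% of all tested genes were called in either direction (36.9% higher and 35.1% lower). The share called is therefore near the background, and the account below rests on the direction and size of each gene. The median log2 fold change was -0.38 over the 9 genes and 0.03 over all tested genes. Of the 9 genes, 1 lay wholly higher and 4 wholly lower in myopia, so that 5 had groups that did not overlap, against 57.8% of all tested genes (29.8% higher and 28.0% lower). With libraries scaled by total count alone, 3 of the 9 genes were called higher (THBS1, THBS2 and POSTN) and 3 lower (COMP, SPARC and the TNC row with more reads).

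Total counts lay between 32309258 and 35430797 per library. Values are read counts relative to library size (CPM), scaled with TMM factors, which ran from 1.11 to 1.25 in myopia and from 0.777 to 0.968 in control. Scaling by total count instead moved the median log2 fold change of all tested genes from 0.03 to 0.47, and "higher" and "lower" below are relative to the TMM scale. The main axis of variation, with 77.1% of the variance of log2 CPM, placed control 4 and control 5 nearest to the myopia libraries, so values without them are given where leaving them out ended a call, made one or moved a log2 fold change by over 1.5 times. Every one of 10 scleral fibroblast markers was detected (COL1A1, DCN and LUM among them), and their summed level was 71917 to 97755 CPM in myopia and 128800 to 162820 CPM in control. Of these markers 2 rose (DCN and PDGFRA), 4 fell (COL1A1, COL3A1, BGN and VIM) and 4 were not called, and COL1A1 alone averaged 35555 CPM in myopia and 82728 CPM in control. Red blood cell markers fell in 4 of 4 tested cases, with sums of 100.2 to 455.9 CPM in myopia and 2504 to 10562 CPM in control. Of 7 markers of retina, pigment epithelium and melanocytes, which lie next to the sclera, 2 rose and 4 fell, with sums of 50.7 to 230.3 CPM in myopia and 234.2 to 511.1 CPM in control. The part of blood and of these neighbouring tissues in the results below was not tested.

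**Figure D1:**
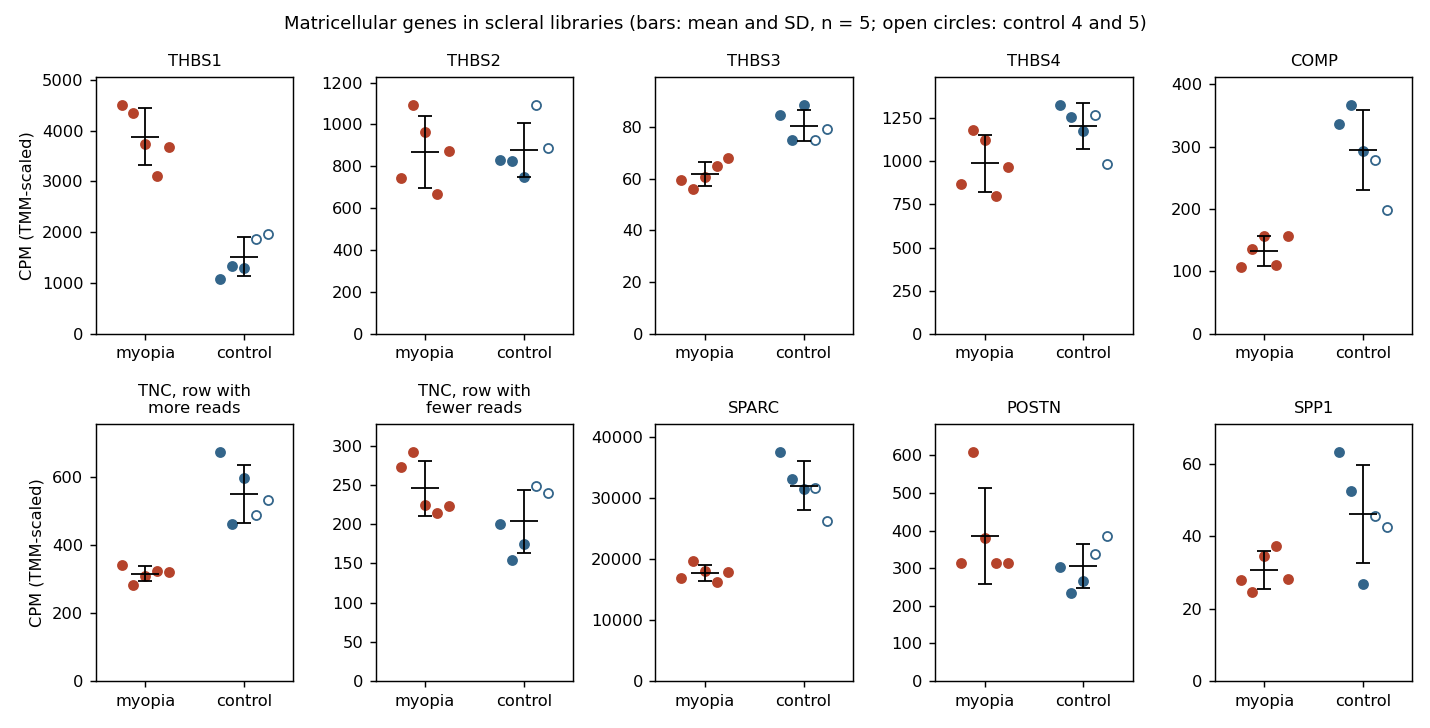
TMM-scaled CPM (vertical axes, each starting at 0) of 9 matricellular genes and the TNC row with fewer reads in 5 myopia and 5 control libraries. Points are libraries, bars are the mean and SD, and open circles are control 4 and control 5. THBS1 lies between 3112 and 4511 CPM in myopia, above every control library, and COMP lies below every control library.

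THBS1 encodes thrombospondin-1, a secreted trimer that activates latent TGF-beta. Its level in myopia libraries 1 to 5 was 4511, 4345, 3744, 3112 and 3681 CPM. Control libraries 1 to 5 had 1086, 1344, 1299, 1875 and 1964 CPM. All myopia libraries lay above all control libraries, and within control the libraries 4 and 5 were the highest. THBS1 averaged 3878 ± 562 CPM in myopia and 1513 ± 385 CPM in control (mean ± SD, n = 5 each), and 1243 ± 138 CPM in control 1 to 3 alone. The log2 fold change was 1.36 ± 0.18 (SE), with a 95% interval of 0.97 to 1.74 and an edgeR adjusted p of 1.54e-05. Of all tested genes, 12.6% had a higher log2 fold change. In whole tissue, more cells that make a transcript and more transcript per cell cannot be told apart, which holds for every gene below. Platelets carry much thrombospondin-1. Of 7 platelet markers, 6 had a row, and the summed level of these was 12.7 to 17.2 CPM in myopia and 14.1 to 18.3 CPM in control; most of that sum was ITGA2B, at 12.4 CPM in myopia and 10.9 CPM in control. Of the 4 tested, PPBP rose, GP1BA and TREML1 fell and ITGA2B was not called. PPBP, GP9, GP6 and TREML1 had medians under 1 CPM, PF4 had no row, and the part of platelets in the value of THBS1 was not tested. Of 6 endothelial markers 2 rose and 1 fell, and their sum was 721.7 to 1111 CPM in myopia and 904.1 to 1111 CPM in control. Of 5 vascular smooth muscle markers 1 rose and 2 fell, with sums of 1213 to 1927 CPM in myopia and 1154 to 1732 CPM in control.

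THBS2 encodes the closest relative of thrombospondin-1, also a trimer and also a brake on vessel growth. Its level was 743.7, 1094, 965.7, 667.4 and 873.4 CPM in myopia libraries 1 to 5. It was 829.9, 826.5, 750.8, 1091 and 887.7 CPM in control libraries 1 to 5. The groups overlapped over nearly their whole range. The log2 fold change was -0.01 ± 0.15 (SE; 95% interval -0.33 to 0.31; edgeR adjusted p = 0.938), and it was 0.42 with total count scaling (adjusted p = 0.0205), 0.06 below the median of all genes on that scale. Without control 4 and control 5 it was 0.13 (adjusted p = 0.432).

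The ratio of the pair within a library does not depend on how libraries are scaled. THBS1 had 6.07, 3.97, 3.88, 4.66 and 4.21 reads per THBS2 read in myopia libraries 1 to 5. The corresponding control values were 1.31, 1.63, 1.73, 1.72 and 2.21 reads per THBS2 read. The ratio was higher in every myopia library than in any control library, with a difference in mean log2 ratio of 1.41 (two-sided exact permutation test, p = 0.00794, the smallest that 5 against 5 can give; 0.0119 after Benjamini-Hochberg adjustment over 6 ratios).

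The other thrombospondins form pentamers and bind collagens and other matrix proteins. THBS3, known for a role in skeletal development in mice, had 59.3, 56.0, 60.9, 64.8 and 67.9 CPM in myopia libraries 1 to 5. For control 1 to 5 the values were 84.8, 75.2, 88.7, 74.9 and 79.4 CPM. The groups did not overlap, and both were narrow, with a coefficient of variation of 7.52% in each. The fall of THBS3 had a log2 fold change of -0.38 ± 0.08 (SE; edgeR adjusted p = 0.00103), and it turned to 0.07 with total count scaling (adjusted p = 0.542), where it lay 0.41 below the median of all genes. THBS3 held 0.00724% of the counts in myopia and 0.0069% in control.

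COMP, cartilage oligomeric matrix protein, binds collagen fibrils and is abundant in cartilage and tendon. It stood at 107.1, 135.5, 156.5, 110.3 and 156.4 CPM in myopia libraries 1 to 5. Control libraries 1 to 5 had 336.5, 367.4, 293.1, 279.3 and 198.4 CPM. Every myopia library lay below every control library, and control 5 was the control nearest to myopia. COMP averaged 133 ± 23.9 CPM in myopia and 295 ± 64.3 CPM in control (mean ± SD, n = 5 each). Its log2 fold change of -1.15 ± 0.16 (SE; 95% interval -1.50 to -0.79; edgeR adjusted p = 3.17e-05) was the lowest of the 9 genes, and 9.1% of all tested genes were lower. With total count scaling COMP fell by 0.68 (adjusted p = 0.000621).

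THBS4, a thrombospondin of tendon and muscle, had 867.7, 1183, 1121, 798.2 and 968.2 CPM in myopia libraries 1 to 5. The corresponding control values were 1328, 1258, 1177, 1267 and 983.6 CPM. The groups overlapped, since control 5 lay below myopia 2 and myopia 3 and control 3 below myopia 2. The log2 fold change was -0.28 ± 0.13 (SE; 95% interval -0.57 to 0.003) and did not pass (edgeR adjusted p = 0.07). The call was made by DESeq2 (-0.31, adjusted p = 0.0271), by limma-voom with libraries weighted for quality (-0.32, adjusted p = 0.0164), without control 5 (-0.34, adjusted p = 0.0212), without myopia 2 (-0.36, adjusted p = 0.0321) and without control 4 and control 5 together (-0.33, adjusted p = 0.0296), and the value was 0.17 with total count scaling.

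COMP and THBS4 differed in how far they moved. COMP had 0.123, 0.114, 0.14, 0.138 and 0.161 reads per THBS4 read in myopia libraries 1 to 5. For control 1 to 5 the values were 0.253, 0.292, 0.249, 0.22 and 0.202 reads per THBS4 read. The groups did not overlap, with a difference in mean log2 ratio of -0.84 (two-sided exact permutation test, p = 0.00794, adjusted p = 0.0119 over 6 ratios). THBS3 per THBS2 read did not differ beyond the spread of the libraries, with a difference of -0.36 (exact permutation p = 0.111, adjusted p = 0.133).

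Markers of tissues rich in COMP and THBS4 moved as follows. Of 5 tendon and ligament markers 3 fell and 2 rose, and their summed level was 4946 to 7078 CPM in myopia and 6875 to 11298 CPM in control. The tendon transcription factor SCX fell (18.0 CPM in myopia, 39.6 CPM in control; log2 fold change -1.14, edgeR adjusted p = 1.87e-06), and the tendon membrane protein TNMD rose (385 CPM in myopia, 237 CPM in control; 0.70, edgeR adjusted p = 0.00232); these were named after their values were seen. Of 11 cartilage and bone markers with a row, 9 were tested, of which 1 rose and 1 fell, with sums of 131.7 to 203.2 CPM in myopia and 167.7 to 214.3 CPM in control. MATN1, MATN3, SNORC, SP7, IBSP and DMP1 had medians under 1 CPM, and SOX9 had no row. Of 11 skeletal muscle markers 5 fell and 0 rose, and their sum was 2332 to 5078 CPM in myopia and 3134 to 7733 CPM in control. The part of these tissues in the values of COMP and THBS4 was not tested.

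The 2 rows labelled TNC gave different results. Tenascin-C is a large matrix glycoprotein that appears in wounds and growing tissue. The table runs in alphabetical order for most of its length (85.1% of rows with a symbol lie in its longest alphabetical run). The row with fewer reads stood at the place of its own symbol, between TMX4 and TNF. The row with more reads stood between TNS4 and TOB1, out of the place of the symbol TNC and where the symbol TNXB, carried by no row, would sort. TNXB encodes tenascin-X, a tenascin that binds collagen fibrils. The sources used here do not settle whether that row counts TNC or TNXB, so its label is uncertain, and the values below are given under the label as deposited.

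The TNC row with more reads had 340.7, 281, 307, 323.7 and 319.2 CPM in myopia libraries 1 to 5. Control libraries 1 to 5 had 673.1, 461, 596.3, 487 and 530.1 CPM. The groups did not overlap, and the myopia libraries lay close together (coefficient of variation 7.06% in myopia and 15.6% in control). This row fell by 0.81 ± 0.12 on the log2 scale (SE; edgeR adjusted p = 3.18e-05), and it was also lower with total count scaling (-0.35, adjusted p = 0.0129).

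The TNC row with fewer reads had 273.1, 292.3, 224.8, 213.9 and 223.3 CPM in myopia libraries 1 to 5. The corresponding control values were 199.6, 154.8, 175, 248.3 and 239.6 CPM. The groups overlapped, because control 4 and control 5 lay within the range of myopia. The log2 fold change of 0.27 ± 0.14 (SE; 95% interval -0.03 to 0.57) did not pass (edgeR adjusted p = 0.0991). It passed without control 4 (0.36, adjusted p = 0.0356), without control 5 (0.35, adjusted p = 0.0359), without both (0.49, adjusted p = 0.00253), with libraries weighted for quality (0.39, adjusted p = 0.0116) and with total count scaling (0.70, adjusted p = 0.00183).

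Reads of the first row per read of the second were 1.25, 0.961, 1.37, 1.51 and 1.43 in myopia libraries 1 to 5. For control 1 to 5 the values were 3.37, 2.98, 3.41, 1.96 and 2.21. The groups did not overlap; this ratio was chosen after its values were seen and was not tested. With the 2 rows summed as if both were TNC, there was a log2 fold change of -0.41 (adjusted p = 0.00354). With the row of fewer reads taken as TNC, 1 of the 9 genes was called higher, 4 lower and 4 not called, and 4 had groups that did not overlap.

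SPARC, also called osteonectin, binds collagen and calcium and takes part in procollagen processing and fibril assembly. It held the third highest mean count of all rows, which is not a level per length. Its level in myopia libraries 1 to 5 was 16961, 19643, 18064, 16182 and 17941 CPM. Control libraries 1 to 5 had 37608, 33138, 31482, 31620.0 and 26297 CPM. Every myopia library lay below every control library. SPARC fell by 0.85 ± 0.14 on the log2 scale (SE; 95% interval of the log2 fold change -1.15 to -0.55; edgeR adjusted p = 0.0001), and by 0.39 with total count scaling. It held 2.07 ± 0.0787% of the counts in myopia and 2.72 ± 0.143% in control (mean ± SD, n = 5 each).

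COL1A1, which encodes a chain of type I collagen, also fell, and SPARC fell less than COL1A1. SPARC had 0.45, 0.494, 0.533, 0.516 and 0.511 reads per COL1A1 read in myopia libraries 1 to 5. The corresponding control values were 0.399, 0.408, 0.38, 0.364 and 0.383. The ratio was higher in every myopia library, with a difference in mean log2 ratio of 0.37 (two-sided exact permutation test, p = 0.00794, adjusted p = 0.0119 over 6 ratios). COL1A1 had a log2 fold change of -1.22 ± 0.15 (SE; edgeR adjusted p = 8.04e-06), and -0.77 with total count scaling. COL1A2, which encodes the other chain of type I collagen, was not called (30639 CPM in myopia, 37560 CPM in control, log2 fold change -0.29, edgeR adjusted p = 0.0713). SPARC, at -0.85, fell more than COL1A2, so the higher ratio holds for COL1A1 and not for type I collagen as a whole. No ratio to COL1A2 was tested.

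POSTN encodes periostin, which binds collagen and supports lysyl oxidase activation and collagen cross-linking. It had 313.1, 609.9, 381.4, 312.5 and 313.2 CPM in myopia libraries 1 to 5. For control 1 to 5 the values were 304, 234.7, 266.3, 336.7 and 384.9 CPM. The groups overlapped, and myopia 2 stood far above the other myopia libraries. The log2 fold change of 0.34 ± 0.20 (SE; 95% interval -0.08 to 0.76) did not pass (edgeR adjusted p = 0.136), and without myopia 2 it was 0.11 (adjusted p = 0.493). Without control 4 and control 5 it was 0.54 (adjusted p = 0.0661). It passed with libraries weighted for quality in limma-voom (0.40, adjusted p = 0.0393) and with total count scaling (0.76, adjusted p = 0.00572).

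Set against COL1A1, which had a log2 fold change of -1.22, POSTN differed between the groups. POSTN itself (0.34) was not called, so this ratio does not show a change of POSTN alone. POSTN had 0.0083, 0.0153, 0.0113, 0.00997 and 0.00893 reads per COL1A1 read in myopia libraries 1 to 5. Control libraries 1 to 5 had 0.00323, 0.00289, 0.00322, 0.00387 and 0.00561. The groups did not overlap, with a difference in mean log2 ratio of 1.52 (two-sided exact permutation test, p = 0.00794, adjusted p = 0.0119 over 6 ratios). Without myopia 2 the difference was 1.39.

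**Figure D2:**
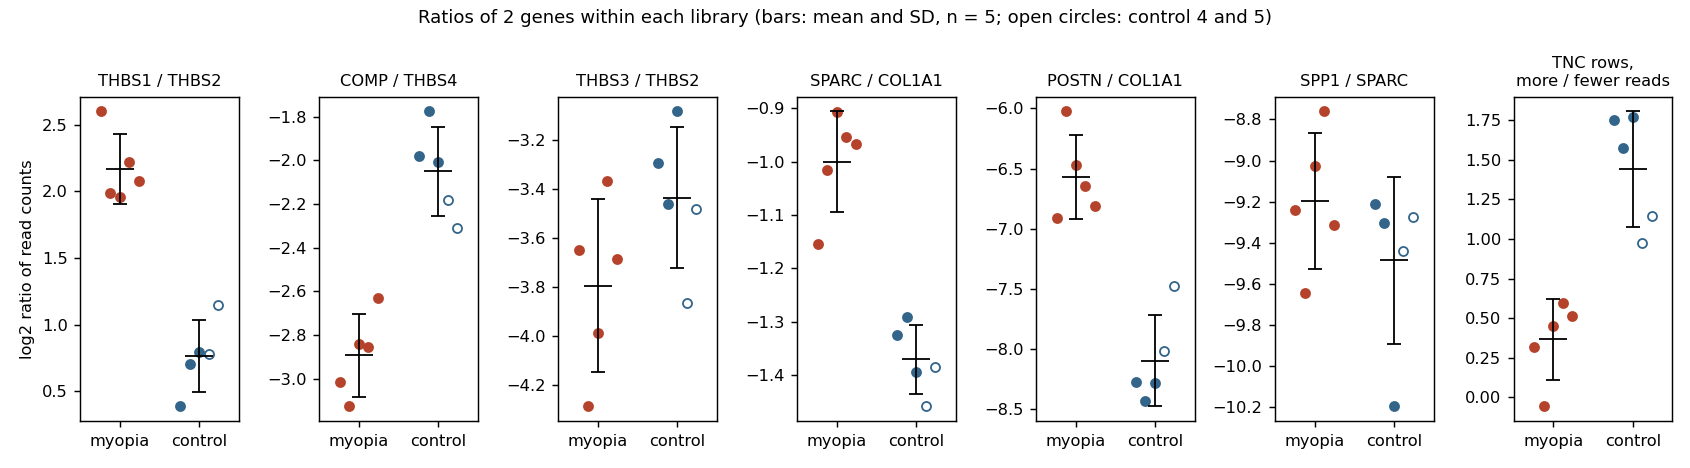
Log2 ratio of the read counts of 2 genes within each library (vertical axes, not starting at 0), which does not depend on the scaling of libraries. Points are 5 myopia and 5 control libraries, bars are the mean and SD, and open circles are control 4 and control 5. THBS1 per THBS2, SPARC per COL1A1 and POSTN per COL1A1 were higher in every myopia library than in any control library, and COMP per THBS4 was lower.

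SPP1 encodes osteopontin, an acidic phosphoprotein made by macrophages and by cells of mineralising tissue that binds integrins and CD44. It had 28.0, 24.5, 34.6, 37.3 and 28.2 CPM in myopia libraries 1 to 5. The corresponding control values were 63.3, 52.5, 26.8, 45.5 and 42.5 CPM. The groups overlapped, since control 3 lay within the range of myopia. The fall of SPP1, with a log2 fold change of -0.59 ± 0.19 (SE; edgeR adjusted p = 0.0136), did not pass without control 4 and control 5 (-0.62, adjusted p = 0.0623) or with total count scaling (-0.13, adjusted p = 0.574). SPP1 per SPARC read did not differ beyond the spread of the libraries (difference in mean log2 ratio 0.29, exact permutation p = 0.278, adjusted p = 0.278). Of 12 macrophage markers, all tested, 9 fell and 0 rose, and their summed level was 380.1 to 575.9 CPM in myopia and 1167 to 1813 CPM in control. The part of macrophages in the fall of SPP1 was not tested.

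**Figure D3:**
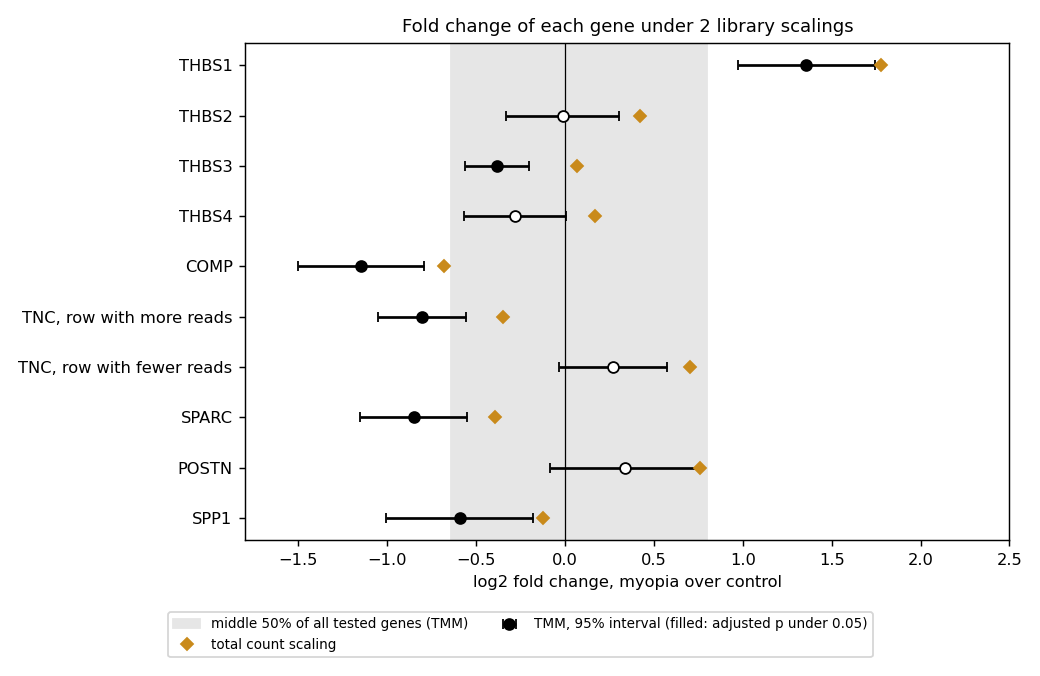
Log2 fold change, myopia over control (horizontal axis), of 9 matricellular genes and the TNC row with fewer reads. Circles are values with TMM factors and their 95% interval, filled where the adjusted p was under 0.05; diamonds are values with total count scaling, and the grey band holds the middle 50% of all tested genes. THBS1 lies right of the band and COMP, SPARC and the TNC row with more reads lie left of it on the TMM scale; the diamonds of THBS2, THBS3 and THBS4 lie on the other side of 0.

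The make-up of the set changed within its reads. SPARC held 72.8 ± 1.58% of the reads of the 9 genes in myopia and 86.7 ± 2.05% in control, and THBS1 held 15.9 ± 1.75% in myopia and 4.21 ± 1.45% in control (mean ± SD, n = 5 each). THBS2 held 3.53 ± 0.425% in myopia and 2.40 ± 0.451% in control. Neither SPARC nor THBS1 overlapped between the groups in this share: SPARC ranged from 70.9% to 74.9% in myopia and from 83.8% to 88.9% in control, and THBS1 from 14.4% to 18.9% in myopia and from 2.57% to 6.26% in control. The 9 genes together held 2.85 ± 0.122% of all counts in myopia and 3.14 ± 0.128% in control.

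Genes with the pattern most like a member were ranked by Pearson's r of log2 CPM over the 10 libraries, after each group's mean was taken off, among 11089 genes with a mean of at least 5 CPM. For THBS1 the highest were CTNNB1 (r 0.983), which encodes beta-catenin, CCPG1 (r 0.98) and PDS5B (r 0.966). For COMP they were Rbp4 (r 0.983), a retinol carrier, ATF4 (r 0.977), a transcription factor of the stress response, and VKORC1 (r 0.976). For SPARC they were Txndc5 (r 0.986), a protein disulfide isomerase of the endoplasmic reticulum, Yipf3 (r 0.976) and CTSF (r 0.976), a cathepsin. For THBS4 they were RPN2 (r 0.983), TPRKB (r 0.962) and SHMT2 (r 0.96), and for THBS2 ATIC (r 0.973), POGLUT2 (r 0.96) and KERA (r 0.951). For THBS3 they were Cbr2 (r 0.938), TAGLN (r 0.935), an actin-binding protein of smooth muscle, and MRAP (r 0.932). For the TNC row with more reads they were Src (r 0.921), a tyrosine kinase, Plcb4 (r 0.9) and Ltbr (r 0.885), and for the row with fewer reads ALX4 (r 0.968), CREB3L2 (r 0.966) and Fzd8 (r 0.944), a Wnt receptor. The highest values for POSTN were those of MPP7 (r 0.904), Ankfy1 (r 0.888) and Fhl1 (r 0.885), and for SPP1 those of EHD1 (r 0.911), TXLNG (r 0.88) and GPR160 (r 0.849). These values rank genes within the same 10 libraries, are the highest picked from 11089 genes and were given no test. With the group means taken off, they do not tell the direction in myopia. Some of these genes had a log2 fold change opposite in sign to their member, such as Plcb4 for the TNC row with more reads and TXLNG for SPP1.

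Other matricellular genes, the CCN, SMOC and SPOCK genes, TGFBI and the remaining tenascin and SPARC-like genes, moved both ways. All 15 were tested, and 4 rose, 4 fell and 7 were not called. The median log2 fold change was 0.53, which includes CCN6 and TNN, both not called and with medians under 1 CPM. SPARCL1 (hevin), the closest relative of SPARC, was at 1138 ± 156 CPM in myopia and 556 ± 206 CPM in control (mean ± SD, n = 5 each), a log2 fold change of 1.03 ± 0.21 (SE; edgeR adjusted p = 0.000504), opposite in sign to SPARC. The groups overlapped slightly, with 875.2 CPM in the lowest myopia library and 905.5 CPM in the highest control library. TNR, a tenascin of the nervous system, rose by 2.79 ± 0.38 on the log2 scale. TNR was near the floor in control (4.86 ± 2.58 CPM in myopia, 0.697 ± 0.201 CPM in control). Spock3, a proteoglycan of the SPARC family, rose by 2.24 ± 0.37 and was also low in control (5.79 ± 2.03 CPM in myopia, 1.21 ± 0.626 CPM in control). With rows of the same symbol summed, Spock3 rose by 1.91 (edgeR adjusted p = 4.84e-05). Of 5 Schwann cell markers, cells of the nerves that enter the sclera, 1 rose and 2 fell, with sums of 2150.1 to 6737 CPM in myopia and 3544 to 5809 CPM in control, and their part in the value of TNR was not tested. CCN5, a CCN family protein that lacks the C-terminal domain of its relatives, fell by 0.92 ± 0.19. Its groups overlapped slightly, with 14.2 CPM in the highest myopia library and 13.9 CPM in the lowest control library. With total count scaling CCN5 fell by 0.45, and 9 genes of this list were called higher and 1 lower.

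Cell surface receptors of these proteins were called higher in 12 of 20 tested cases and lower in 4, and the median log2 fold change was 0.38. Those called lower were CD44, ITGA5, ITGB5 and CALR, and ITGA4, called higher, had a median under 1 CPM. CD47 rose by 0.43 on the log2 scale, and CD36 was not called. ITGAV, the alpha-v integrin chain that binds thrombospondin-1, periostin and osteopontin, was at 230 ± 22.4 CPM in myopia and 118 ± 4.42 CPM in control (mean ± SD, n = 5 each) and rose by 0.96 ± 0.08 on the log2 scale (SE; edgeR adjusted p = 8.14e-07). ITGA8, an integrin chain that also binds osteopontin, rose by 2.36 ± 0.29, at 15.6 ± 2.61 CPM in myopia and 3.01 ± 1.55 CPM in control. TLR4, an innate immune receptor that tenascin-C can activate, rose by 1.76 ± 0.21, and VLDLR, a lipoprotein receptor that binds thrombospondin-1, by 1.51 ± 0.18. With total count scaling 16 genes of this list were called higher and 1 lower.

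Latent TGF-beta and the genes that store and read it also split. All 14 were tested, and 7 rose, 4 fell and 3 were not called; the median log2 fold change was 0.33. TGFB1, a growth factor that thrombospondin-1 activates, was at 27.7 ± 2.82 CPM in myopia and 64.5 ± 7.44 CPM in control (mean ± SD, n = 5 each), opposite in direction to THBS1. TGFB2 rose, at 113 ± 8.65 CPM in myopia and 47.5 ± 16.8 CPM in control. TGFB3, at 851 ± 163 CPM in myopia and 1046 ± 120 CPM in control, was not called. The latent TGF-beta binding proteins LTBP4 and Ltbp3 fell by 1.06 ± 0.12 and 0.90 ± 0.12 on the log2 scale (SE; edgeR adjusted p = 3.68e-06 and 1.36e-05). With total count scaling TGFB1 fell by 0.76, LTBP4 by 0.60 and Ltbp3 by 0.44, and each was still called. SMAD2, which carries the TGF-beta signal to the nucleus, rose by 1.05 ± 0.09 (edgeR adjusted p = 5.13e-07), at 33.7 ± 1.35 CPM in myopia and 16.2 ± 1.23 CPM in control. The counts of all 3 lists stand beside a background of 71.9% of genes called, and nothing particular to a list is drawn from them.

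**Figure D4:**
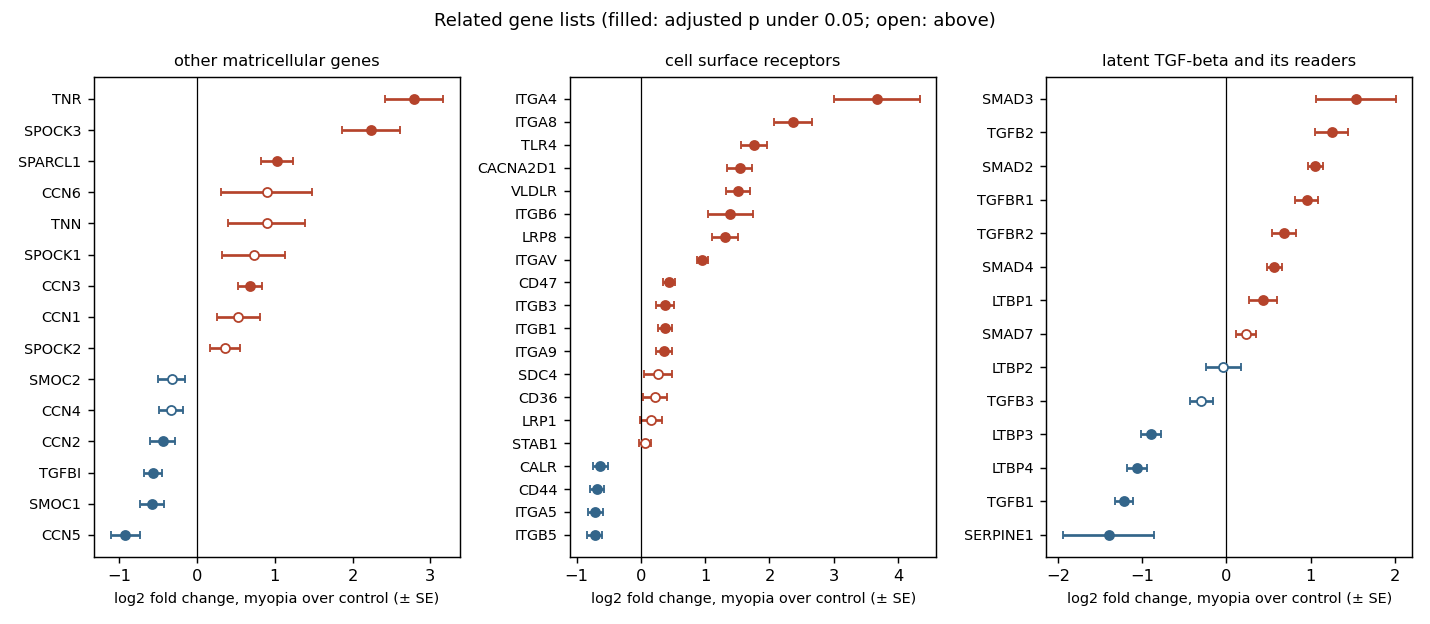
Log2 fold change, myopia over control, with its SE (horizontal axes), of 15 other matricellular genes, 20 cell surface receptors and 14 genes of latent TGF-beta and its readers. Filled points had an adjusted p under 0.05. Receptors were called higher in 12 cases and lower in 4 on the TMM scale, while LTBP3, LTBP4 and TGFB1 lie left of 0.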

How the data were processed

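The authors deposited raw counts of reads per gene row, whole numbers with 1 column per library. Per the labels' protocols, libraries were made from total RNA with an mRNA kit. The submitters' processing notes name the builds GRCm38 and mm10 (mouse) without a role; the sources used here name no aligner, counter, annotation or strand setting, and overlapping, antisense or near-identical genes may share reads. No coordinates, lengths or sequences are therefore given. Shares of reads, summed CPM, ratios of reads and the rank of SPARC are in reads, not in level per length. They do not compare the expression level of different genes.

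Of 18079 rows, 437 have no symbol (0.751% to 0.824% of counts in myopia, 1.18% to 1.69% in control) and were left out. A symbol on several rows keeps each row, and the row with the highest mean takes the plain name. After filterByExpr (minimum count 10, minimum total 15), 14683 rows entered the edgeR 4.0.16 fit under R 4.3.3 (TMM, robust glmQLFit, glmQLFTest, 1 factor for group). The standard error is the log2 fold change over the square root of F. The fit was also run on simulated counts of 14683 genes for this comparison, 100 of them changed 2-fold and 100 changed 4-fold. The share found was 69% in the 2-fold set and 95% in the 4-fold set, and 6 unchanged genes were also called. In the real data 10561 genes were called, far more than were changed in the simulation. These rates therefore cannot be carried over to the real data. Ratios used counts plus 0.5 and an exact permutation test; 2 planned ratios with TNXB could not be had. Replicates differed by more than counting noise. Alternatives were other scalings and filters, DESeq2 1.42.0, limma-voom 3.58.1, a replicate block, summed rows and left-out libraries.

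The genes and lists were chosen with earlier results of these data known. Named genes are the members, up to 4 called genes of each pathway list by smallest p, COL1A1, and the 3 genes most like a member in pattern. Marker genes (SCX, TNMD, COL1A2, DCN and PDGFRA among them) were named after their values were seen. So were CCN6, TNN, TGFBI, TGFB2, TGFB3, CD36, CD44, CD47, ITGA4, ITGA5, ITGB5 and CALR from the pathway lists.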

Additional observations from a re-analysis of the deposited data

Results flagged for a closer look

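The check covered 60 groups of 5 values, those of the members, the ratios, COL1A1 and the genes named from lists by smallest p. Of these groups, 4 held a library far from the other libraries of its group. Chance gives about 5% of such groups. POSTN stood at 609.9 CPM in myopia 2, against 312.5 to 381.4 CPM in the other myopia libraries. ITGAV stood at 269 CPM in myopia 1, against 213 to 223.9 CPM in the other myopia libraries. ITGAV stood at 125.9 CPM in control 5, against 114.8 to 118 CPM in the other control libraries. LTBP3 stood at 616.1 CPM in control 5, against 779.2 to 840.6 CPM in the other control libraries. What set these libraries apart was not tested.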

How the results depend on the processing

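THBS1, COMP and SPARC kept their direction and call under all 22 alternatives run, and the TNC row with more reads under the 21 that keep it apart from the other TNC row; the rows summed also gave a called fall. The count of genes called higher was 3 with total count scaling and 2 with sample quality weights, and 3 were then called lower with total count scaling. THBS2 changed sign without passing with upper quartile factors (0.0522), sample quality weights (0.0482), summed rows (0.00486), without control 4 and control 5 (0.13) and when control 4, control 5, myopia 1 or myopia 4 was left out (range over left-out libraries -0.11 to 0.088); with total count scaling it passed (0.42). THBS3 (0.0689) and THBS4 (0.17) turned positive with total count scaling. Without control 4 and control 5, the ratios THBS1/THBS2 (1.54), COMP/THBS4 (-0.97), SPARC/COL1A1 (0.34) and POSTN/COL1A1 (1.76) had an adjusted p of 0.0536, at the smallest raw p that 5 against 3 libraries can give. Leaving out each library in turn gave 1 gene higher and 5 to 6 lower, 10133 to 10854 genes called of all tested, and ratio differences that kept their call. The replicate block changed no call of a member (1 higher, 5 lower; 10103 of all genes called). Same-numbered libraries did not deviate together (correlations from -0.129 to 0.013), so the numbers are not taken as pairs. The 12 genes named from the pathway lists by smallest p and COL1A1 kept direction and call in all 286 settings. Marker genes, the other genes named from the lists and the genes alike in pattern were not each run under them. The cause of these shifts was not tested, beyond the change of scale itself and the smaller number of libraries.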
